A study of Mus musculus with 4 samples.

Results

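The promoters of 63 mouse interferon and interferon-induced genes were examined, among the 26354 promoters of a table of chromatin immunoprecipitation sequencing (ChIP-seq) reads for histone H3 lysine 9 dimethylation (H3K9me2). Members were chosen by gene symbol alone, though with earlier results of these data known. They comprised 15 interferon ligands, 4 interferon receptor subunits, 9 interferon regulatory factors (Irf), 2 Ifit, 8 Ifi, 3 Isg, 10 Gbp and 12 Oas genes. Of these, 39 lay in a cluster, defined as at least 3 genes of 1 family on 1 chromosome whose neighbouring start sites were at most 1 Mb apart, and 24 were single. Single means only that fewer than 3 such members matched, so neighbouring pairs such as Oasl1 with Oasl2 and Ifit1 with Ifit2 counted as single. The chromatin came from the medial layer of aortas of male C57Bl/6J mice, from which fat, the adventitia and the endothelium had been stripped by hand, and it was fixed straight from the animal without culture. The work was done in 2 independent experiments, named v102 and v134. In each, 1 library was made from the H3K9me2 precipitate and 1 from the input, the chromatin before precipitation. No treatment is labelled and all mice were of 1 sex and strain, so the only comparison is that of ChIP with input. The number of animals behind each experiment is not given in the sources used here. The table holds no expression values, so the labelled cell type was not checked against its marker genes and the presence of other cells was not tested.

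H3K9me2 is a mark of repressed chromatin that is written mainly by the methyltransferases G9a and GLP. Type I interferons, the Ifna family, Ifnb1, Ifne and Ifnk, signal through the receptor subunits Ifnar1 and Ifnar2, and interferon gamma (Ifng) signals through Ifngr1 and Ifngr2. Both routes activate JAK kinases and STAT factors, and type I signaling brings STAT proteins together with Irf9 on a DNA element called the interferon-stimulated response element (ISRE), whereas interferon gamma leads to STAT dimers that bind the gamma-activated site (GAS). The genes induced in this way include the antiviral Ifit and Oas genes and the guanylate-binding proteins (Gbp), which act against viruses and intracellular microbes and are kept low in resting cells.

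Each promoter was a window reaching 1 kb to each side of a transcription start site, and its value was the number of reads in each library. The totals over all promoters were 162233 and 229605 reads in the ChIP libraries of v102 and v134 and 619100 and 1084349 in the inputs. Reads at the members were few, with 1 to 47 ChIP reads and 23 to 96 input reads over both experiments, and 30 of the 63 members had at least 20 input reads in each experiment. For a comparable scale, the H3K9me2/input ratio was computed in each experiment after division by these totals, with 1 read added to each count, and its log2 value was averaged over the experiments and ranked among all promoters as a percentile, where 50 is the median and 100 the highest ratio. Errors on log2 ratios are SD over the 2 experiments. The deposited ratio is that of summed ChIP to summed input reads without such scaling. It had a median of 0.162 and a 75th percentile of 0.343 over all promoters. Its 95% Wilson intervals below were computed from the summed reads, so they cover counting error only and leave out the spread between experiments. The reads carry no identifiers that would show which of them came from 1 molecule, so counting error itself may be understated.

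The sequence upstream of the start site is shown for 6 members that stand for the outcomes described below. These are Oas1a and Ifna12, which lay above input, Ifngr1 and Ifit1, which lay below it, Isg15, which differed most between the experiments, and Ifnb1, the lowest of the ligands. Each run holds the 250 bases before the RefSeq start on GRCm38.p6, 5′ to 3′ on the strand of the gene. Capitals mark matches to the ISRE core, GAAANNGAAA, and to the GAS core, TTCNNNGAA, searched on both strands with overlapping matches counted. The windows are chr5:120907526-120907775 on the minus strand for Oas1a, chr4:88603377-88603626 on the minus strand for Ifna12, chr4:156200819-156201068 on the minus strand for Isg15, chr19:34640639-34640888 on the plus strand for Ifit1, chr4:88522795-88523044 on the minus strand for Ifnb1 and chr10:19591699-19591948 on the plus strand for Ifngr1.
Oas1a: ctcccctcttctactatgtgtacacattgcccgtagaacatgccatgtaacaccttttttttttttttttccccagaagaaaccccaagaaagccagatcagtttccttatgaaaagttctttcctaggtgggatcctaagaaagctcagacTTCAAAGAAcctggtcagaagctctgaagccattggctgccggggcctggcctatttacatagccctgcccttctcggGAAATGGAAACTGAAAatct
Ifna12: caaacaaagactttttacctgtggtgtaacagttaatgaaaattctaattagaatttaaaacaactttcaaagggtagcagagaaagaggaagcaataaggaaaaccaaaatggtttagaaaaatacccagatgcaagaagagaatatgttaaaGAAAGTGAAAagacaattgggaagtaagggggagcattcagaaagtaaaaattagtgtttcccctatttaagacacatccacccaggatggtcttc
Isg15: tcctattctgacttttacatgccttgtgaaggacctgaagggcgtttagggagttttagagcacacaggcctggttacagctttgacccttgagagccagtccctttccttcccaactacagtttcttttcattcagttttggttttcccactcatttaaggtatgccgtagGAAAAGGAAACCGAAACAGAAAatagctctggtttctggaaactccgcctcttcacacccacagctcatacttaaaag
Ifit1: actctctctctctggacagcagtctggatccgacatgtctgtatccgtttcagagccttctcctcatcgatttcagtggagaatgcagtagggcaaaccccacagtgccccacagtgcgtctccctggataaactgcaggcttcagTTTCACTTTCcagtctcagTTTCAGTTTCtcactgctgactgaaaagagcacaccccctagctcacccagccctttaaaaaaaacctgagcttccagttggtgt
Ifnb1: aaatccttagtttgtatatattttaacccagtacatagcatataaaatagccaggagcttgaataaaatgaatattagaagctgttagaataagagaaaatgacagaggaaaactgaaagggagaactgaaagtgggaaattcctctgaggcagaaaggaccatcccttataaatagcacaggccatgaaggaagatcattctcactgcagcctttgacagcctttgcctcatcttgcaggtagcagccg
Ifngr1: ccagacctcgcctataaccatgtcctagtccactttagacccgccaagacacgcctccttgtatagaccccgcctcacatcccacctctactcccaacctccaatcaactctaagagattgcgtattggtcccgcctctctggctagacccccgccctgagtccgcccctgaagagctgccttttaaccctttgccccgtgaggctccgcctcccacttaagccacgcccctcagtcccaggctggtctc

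With -1 as the base next to the start site, the Oas1a promoter had 2 overlapping ISRE core matches that began at -20 and -14, and a GAS core match at -98. Isg15 had 3 overlapping ISRE core matches, at -78, -72 and -66, Ifit1 had 2 on the opposite strand, at -104 and -85, and Ifna12 had 1, at -96. No match to these letters was found in the windows of Ifnb1 and Ifngr1. Across the 32851 promoters in the RefSeq table, 2.98% held the ISRE core and 7.02% the GAS core. Promoter sequences were matched for 49 of the 63 members, of which 22 (44.9%) held the ISRE core and 15 (30.6%) the GAS core. Both cores were found in 8 members, with no overlap between an ISRE and a GAS match. The ISRE core was found in 9 of 14 ligands, 5 of 5 Gbp, 4 of 8 Oas, 1 of 8 Irf and 0 of 4 receptor promoters with a sequence. It was held by 18 of 26 clustered and 4 of 23 single members. A match is a run of letters and not a measured binding site.

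As a set, the 63 members lay near the middle of all promoters, with a median at percentile 51.6 and a range from 1.73 to 92.4. The top quartile held 12 members and the bottom quartile 10. The top quartile of both experiments held 10 (15.9%), compared with 17.7% of all promoters. With overlapping windows counted once, 60 members remained, with 10 in the top quartile and 8 (13.3%) in that of both experiments. ChIP and input counts were compared over the whole table with the edgeR quasi-likelihood test, and adjusted p-values are Benjamini-Hochberg values over all 26354 promoters. At an adjusted p under 0.05, 5 members lay above input (7.94%), where 18.6% of all promoters did, and 6 lay below it (9.52%), where 17.0% did. The members above were Oas1a, Ifna12, Gbp11, Ifi205 and Oas1d, and those below were Irf3, Isg20l2, Ifngr1, Ifi30, Gbp3 and Ifit1. The other 52 were not called, and an unadjusted p under 0.05 was found for 10 members above and 10 below. When the experiment was entered as a block, since each ChIP has its own input, Ifna12 and Oas1a remained above (15.8% of all promoters), and Isg20l2, Irf3 and Ifngr1 remained below (8.30% of all promoters). The test rests on 2 libraries against 2. It estimates the spread between libraries in part over all promoters, so a p-value does not describe the spread of its own promoter alone. On the scale of this test the median log2 fold change of ChIP over input was -0.35 over all promoters and -0.16 over the members.

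Among the ligands, which start the pathway, 1 of 15 (6.67%) was called above input and 0 below, against 18.6% and 17.0% of all promoters. The median percentile of the ligands was 66.6, with 67.4 in v102 and 51.4 in v134. Ifna12, 1 of 11 Ifna genes in the chromosome 4 cluster, had 9 and 15 ChIP reads in v102 and v134 against 10 and 36 input reads. Its ratio was high in both experiments, at percentiles 91.7 and 82.0. The mean log2 ratio was 1.41 ± 0.54 (SD, n = 2) and the log2 fold change over input was 1.35 (SE 0.46, adjusted p = 0.0153, edgeR, and 0.0417 with the experiment as a block). Its neighbour Ifna14 stood close to it at percentile 87.0, with 6 and 11 ChIP reads against 6 and 33 input reads, but did not pass the test (adjusted p = 0.0906, edgeR).

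Ifnb1, the interferon beta gene that is switched on early in the response to viral nucleic acid, had the lowest ratio of the ligands. It had 0 and 3 ChIP reads in v102 and v134 against 22 and 30 input reads, so the deposited ratio was 0.0577 (95% interval 0.0191 to 0.174). This placed it at percentile 12.7, and its log2 fold change of -1.84 (SE 0.82) did not pass the test (adjusted p = 0.0629, edgeR). Ifng, a cytokine of T and natural killer cells, had 10 and 17 ChIP reads against 38 and 47 input reads, at percentile 70.6. Ifnk and Ifne, interferons of epithelia, lay at percentiles 66.6 and 49.7. Of the other Ifna genes, Ifna7 had the most reads, with 16 and 11 ChIP reads against 26 and 70 input reads, and the percentile went from 83.6 in v102 to 51.4 in v134. Ifna5 had 4 and 2 ChIP reads on 5 and 19 input reads, and Ifna6 had 2 and 1 on 11 and 13, and their ranks rest on these few reads. The Ifna genes had a median percentile of 72.7 in v102 and 52.5 in v134, and 9 of 11 ranked higher in v102. Their coding sequences are near-identical copies, and how reads that align to several places were treated is not given in the sources used here, so reads may have been moved between them.

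The receptor genes were spread widely. Ifnar1 and Ifnar2 encode the subunits for type I interferons. Ifnar1 had 7 and 22 ChIP reads in v102 and v134 against 21 and 53 input reads, with a mean log2 ratio of 0.74 ± 0.38 (SD, n = 2). It stood at percentile 76.7, above the median in both experiments, with a log2 fold change of 0.92 (SE 0.41, adjusted p = 0.0641, edgeR). Ifnar2 had 9 and 7 ChIP reads against 18 and 37 input reads and stood at percentile 71.4.

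Ifngr1 and Ifngr2, which bind interferon gamma, had fewer ChIP reads. Ifngr1 had 0 and 2 ChIP reads in v102 and v134 against 28 and 44 input reads, a deposited ratio of 0.0278 (95% interval 0.00750 to 0.103). It was low in both experiments and lay below input with a log2 fold change of -2.87 (SE 0.83, adjusted p = 0.00369, edgeR, and 0.0228 with the experiment as a block). Ifngr2 had 0 ChIP reads in v102 and 7 in v134, against 28 and 47 input reads, and so ranked at percentile 0.867 in one experiment and 51.0 in the other. Ifngr2, Ifnar1 and Ifnar2 start within 174.3 kb of each other on chromosome 16 and stood at percentiles 13.1, 76.7 and 71.4. The low rank of Ifngr2 came from v102 alone, and in v134 these neighbours stood at 51.0, 81.7 and 59.6. None of them was called, and the difference between them was not tested.

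The Irf genes encode transcription factors that switch on the ligands or relay interferon signals, and none of the 9 lay in the top quartile. Their median was at percentile 38.9. Of the 9, 1 (11.1%) was called below input and 0 above, against 17.0% and 18.6% of all promoters. Irf3, a factor that is activated by viral nucleic acid and turns on Ifnb1, had the lowest ratio of all members. It had 1 and 0 ChIP reads in v102 and v134 against 23 and 49 input reads, a deposited ratio of 0.0139 (95% interval 0.00243 to 0.0794). Its log2 fold change was -3.78 (SE 0.99, adjusted p = 0.00105, edgeR, and 0.0128 with the experiment as a block). Its window overlaps that of the neighbouring gene Bcl2l12, so the reads cannot be assigned to 1 of the promoters.

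The other Irf promoters did not pass the test, with adjusted p-values from 0.0788 to 0.853 (edgeR). Irf9, the DNA-binding subunit that joins the STAT proteins, had 4 and 1 ChIP reads in v102 and v134 against 24 and 42 input reads, at percentile 21.4. Irf8, a factor of myeloid cells, stood at percentile 30.7, and Irf1, itself induced by interferon gamma, at 36.4. Irf5 stood at 43.8 and Irf2, which opposes Irf1, at 43.9. Irf7, which amplifies Ifna transcription, had 5 and 4 ChIP reads against 20 and 28 input reads and stood at 56.6. Irf4, a factor of lymphocytes, was the highest at 68.2. The windows of the Irf genes had a median GC content of 55.0%, against 46.5% for all members.

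Among the induced genes, both Ifit promoters lay in the lower part of the range. Ifit1, whose protein binds viral RNA lacking a host cap, had 1 and 4 ChIP reads in v102 and v134 against 31 and 43 input reads. It was below the median in both experiments, with a mean log2 ratio of -1.48 ± 0.83 (SD, n = 2) and a log2 fold change of -1.63 (SE 0.65, adjusted p = 0.0384, edgeR). The call was lost with the experiment as a block (adjusted p = 0.0790, edgeR), and its window overlaps that of 2010002M12Rik. Ifit2 had 1 and 6 ChIP reads against 18 and 44 input reads, at percentile 33.3.

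Ifi205, a gene of the PYHIN family of DNA-binding proteins, was the member whose high ratio was most alike in the experiments among those called above input. It had 9 and 15 ChIP reads against 15 and 33 input reads, with log2 ratios of 1.25 and 1.15 and a mean of 1.20 ± 0.07 (SD, n = 2). The log2 fold change was 1.27 (SE 0.46, adjusted p = 0.0219, edgeR, and 0.0512 with the experiment as a block). Of the 5 members above input it was the only 1 counted as single. The choice by symbol brought in no other PYHIN gene, so this label does not show that Ifi205 lies apart from genes of its family. Of the 7 other Ifi genes, Ifi27l2b ranked highest, at percentile 86.3, with 4 and 9 ChIP reads on only 9 and 14 input reads, and its log2 fold change of 1.42 (SE 0.62) did not pass the test (adjusted p = 0.0576, edgeR). Its neighbour Ifi27l2a stood at percentile 33.7 and Ifi27l1 at 65.4, all 3 within 23 kb on chromosome 12. Ifi30, a thiol reductase of lysosomes, lay below input with 2 and 1 ChIP reads against 22 and 47 input reads, a deposited ratio of 0.0435 (95% interval 0.0145 to 0.131) and an adjusted p of 0.0158 (edgeR), or 0.0502 with the experiment as a block. Ifi44, Ifi47 and Ifi35 lay between percentiles 51.6 and 70.1.

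The 3 Isg genes differed. Isg20l2, a nuclease of ribosomal RNA processing that shares the symbol stem with the antiviral exonuclease Isg20, had 0 and 1 ChIP reads in v102 and v134 against 23 and 35 input reads, a deposited ratio of 0.0172 (95% interval 0.00301 to 0.0988). It lay below input with a log2 fold change of -3.50 (SE 1.04, adjusted p = 0.00480, edgeR, and 0.0281 with the experiment as a block), and its window overlaps that of Rrnad1. Isg20 itself had 7 and 4 ChIP reads against 12 and 28 input reads, at percentile 70.7. Isg15, a ubiquitin-like protein attached to other proteins after interferon, was the only member that lay in the bottom quartile of one experiment and the top quartile of the other. It had 0 ChIP reads in v102 and 12 in v134, against 18 and 38 input reads, at percentiles 5.75 and 75.2, so no level can be assigned to it from these libraries.

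The Gbp genes, interferon gamma-induced GTPases, lie in clusters on chromosomes 3 and 5, and these stood apart in rank. On chromosome 5 the median percentile was 84.1 and 4 of 5 genes were in the top quartile of both experiments. On chromosome 3 the median was 46.2 and 0 of 5 were, against 17.7% of all promoters. The chromosome 5 promoters had fewer reads, with a median of 24 summed input reads against 69, and 0 of 5 reached 20 input reads in each experiment, against 4 of 5 on chromosome 3, so the contrast cannot be made under that minimum. The reads of each cluster were summed, scaled by library totals and divided by input. This pooled ratio was 1.84 in v102 and 1.65 in v134 on chromosome 5, and 0.707 and 0.429 on chromosome 3, with no overlap between the clusters. The medians, the count and the sums for chromosome 5 take in 1 shared window 3 times, as described next. The difference was not tested, as the experiments give only 2 values to each.

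Gbp11, at one end of the chromosome 5 cluster, had 11 and 11 ChIP reads in v102 and v134 against 14 and 30 input reads and a mean log2 ratio of 1.24 ± 0.52 (SD, n = 2). It lay above input with a log2 fold change of 1.27 (SE 0.48, adjusted p = 0.0273, edgeR, and 0.0682 with the experiment as a block). Gbp4, Gbp8 and Gbp9, at the other end, start within 0.047 kb of each other in the annotation, so their windows hold nearly the same reads and amount to 1 measurement. Gbp8 and Gbp9 each had 5 and 6 ChIP reads against 10 and 13 input reads, and Gbp4 had 6 and 6 against 10 and 14. None of the 3 passed the test, with adjusted p-values of 0.103 for Gbp4 and 0.134 for the others (edgeR). Gbp6, between the ends, had 0 ChIP reads in v102 and 7 in v134 and stood at percentile 35.4. On chromosome 3, Gbp3 lay below input with 4 and 1 ChIP reads against 26 and 62 input reads, a log2 fold change of -1.82 (SE 0.63) and an adjusted p of 0.0157 (edgeR), or 0.0529 with the experiment as a block. Its neighbours Gbp5, Gbp7, Gbp1 and Gbp2 lay between percentiles 34.4 and 61.5.

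The Oas genes belong to a family that includes enzymes that sense double-stranded RNA of viruses. Of the 12, 2 (16.7%) lay above input and 0 below, against 18.6% and 17.0% of all promoters. Oas1a had the highest ratio of all members, with 22 and 25 ChIP reads in v102 and v134 against 16 and 58 input reads, at percentiles 97.1 and 82.5. The deposited ratio was 0.635 (95% interval 0.442 to 0.914), and it was the only member whose interval lay wholly above the 75th percentile of all promoters. The mean log2 ratio was 1.71 ± 0.93 (SD, n = 2). The log2 fold change was 1.67 (SE 0.37, adjusted p = 7.68e-05, edgeR, and 0.00155 with the experiment as a block), and Oas1a was also the only member called by DESeq2 (adjusted p = 0.0148).

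Oas1d, next to it, had 14 and 12 ChIP reads against 21 and 34 input reads and a mean log2 ratio of 1.10 ± 0.40 (SD, n = 2). It lay above input with a log2 fold change of 1.18 (SE 0.44, adjusted p = 0.0245, edgeR), a call that was lost with the experiment as a block (adjusted p = 0.0542) and with scaling by library totals (adjusted p = 0.0527). Oas1g, on the other side of Oas1a, had 4 and 14 ChIP reads against 13 and 27 input reads, at percentile 79.6, and did not pass the test (adjusted p = 0.0803, edgeR). Oas1g, Oas1a and Oas1d are the last genes of the cluster, at 137.8, 157.7 and 164.7 kb from the first start site. The 7 before them, from Oas2 to Oas1h, lay between percentiles 22.1 and 60.5. The lowest was Oas1f, with 1 and 3 ChIP reads against 24 and 32 input reads. Oas1b and Oas1c share most of their window and stood at percentiles 45.6 and 46.1. Oasl1 and Oasl2, a neighbouring pair outside this cluster that was counted as single, lay at 57.1 and 65.2. The Oas1 genes are close paralogs, and the caution on ambiguous reads given for Ifna holds for them and for Gbp.

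**Figure D1:**
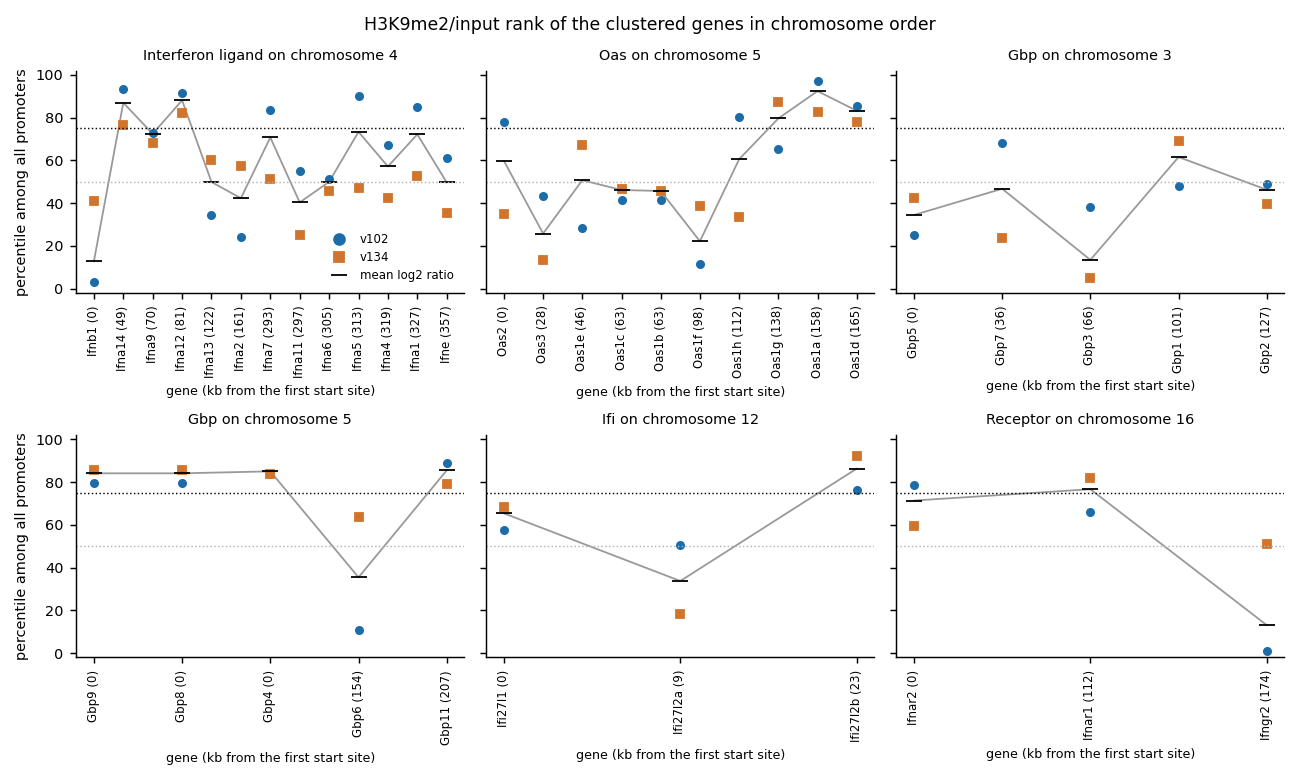
Percentile of the H3K9me2/input ratio among all promoters (vertical axis) for the genes of each cluster in chromosome order, with the distance from the first start site in kb beside each name, circles for v102, squares for v134 and bars for the rank of the mean log2 ratio. Oas1g, Oas1a and Oas1d at the end of the Oas cluster rank from 79.6 to 92.4, and Ifnb1 at the start of the ligand cluster ranks at 12.7.

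The clusters spanned 23 to 357.4 kb between their first and last start sites. Ranks varied within each of them. In the ligand cluster on chromosome 4, which holds 13 genes, percentiles ran from 12.7 at Ifnb1 to 88.1 at Ifna12. The 3 genes that follow Ifnb1 along the chromosome, Ifna14, Ifna9 and Ifna12, stood at 87.0, 72.4 and 88.1. They ranked at 68.3 or above in each experiment. The next genes, Ifna13 and Ifna2, stood at 49.9 and 42.3. From Ifna7 to Ifna1 the percentiles ranged from 40.3 to 73.3, with v102 above v134 at each of these genes.

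Clustered members ranked higher than single members, mainly in v102. The median percentile was 59.8 for the 39 clustered and 43.9 for the 24 single genes, and 11 clustered genes against 1 single gene lay in the top quartile. The 11, and the sums over clustered genes below, take in Gbp4, Gbp8 and Gbp9 as separate genes, although their windows hold nearly the same reads. In v102 the medians were 65.5 for clustered and 44.9 for single genes, but in v134 they were 52.5 and 50.1. Of the clustered genes, 4 (10.3%) were called above input and 1 (2.56%) below, and of the single genes 1 (4.17%) above and 5 (20.8%) below. Of all promoters, 18.6% lay above and 17.0% below, so the share of single genes below input was near that of all promoters. The pooled ratio of the clustered genes was 1.24 in v102 and 0.918 in v134, and that of the single genes 0.711 and 0.706, so that clustered exceeded single by 1.75 times in v102 and 1.30 times in v134. The share of member reads that fell at clustered promoters was 69.5% and 66.2% in the ChIP libraries and 56.6% and 60.1% in the inputs. The ChIP and input libraries did not overlap in this share. An exact two-sided permutation test of 2 libraries against 2 cannot go below p = 0.333, so the difference could not be tested. Clustered genes without the ligands had a median at 60.1, and with windows that overlap another member's counted once it was 58.4.

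Base composition moved with this difference. The median log2 ratio of all promoters fell with the GC content of the window, from 1.24 between 35% and 40% GC to -0.96 between 55% and 60%. The clustered members had a median GC content of 45.6% and the single members 50.8%. After the trend over all promoters was removed with a lowess fit, the medians were at percentile 36.4 for clustered and 41.2 for single members, so the order turned. The ligands, with a median GC content of 40.8%, went from percentile 66.6 to 29.1, and the Irf genes from 38.9 to 61.4. The Gbp cluster on chromosome 5, with its shared window counted 3 times, stayed high at 83.2. That on chromosome 3 went from 46.2 to 11.5. Oas1a stood at 96.5 after this step, Oas1d at 90.5, Gbp11 at 87.8, Ifna12 at 69.0 and Ifi205 at 64.4. Ifnar1 and Ifnar2 were at 93.6 and 90.4, while Irf3, Ifngr1 and Isg20l2 were at 3.07, 3.63 and 6.16. The part of base composition in the difference between clustered and single members was not tested beyond this.

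**Figure D2:**
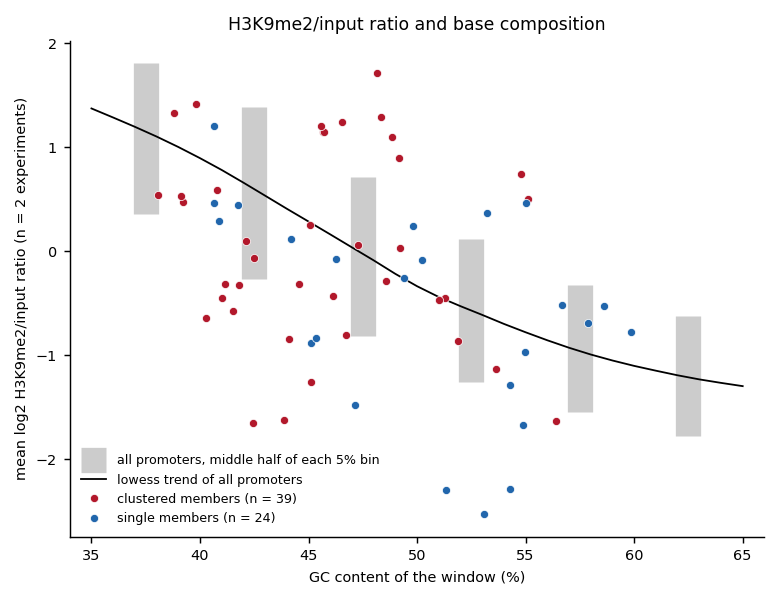
Mean log2 H3K9me2/input ratio over the 2 experiments (vertical axis) against the GC content of the window in percent (horizontal axis), with gray bars for the middle 50% of all promoters in each 5% bin, a line for the lowess trend and points for clustered and single members. The ligands near 40% GC lie mostly under the trend line, and Oas1a at 48.2% GC lies far above it.

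The experiments ranked the members less alike than promoters in general. Across the 63 members the log2 ratios of v102 and v134 had a Spearman rho of 0.482, against 0.689 across all 26354 promoters, and the median absolute difference was 0.89 on the log2 scale for the members and 0.70 for all. These are descriptions across promoters that share the same libraries. Above the median of both experiments lay 25 members and below it in both 18, and the other 20 changed sides. With 0 ChIP reads in 1 experiment stood 7 members, Gbp6, Ifnb1, Ifngr1, Ifngr2, Irf3, Isg15 and Isg20l2, and none had 0 in both. The Wilson interval of the deposited ratio included the median of all promoters at 42 members, lay above it at 16 and below it at 5, so at most members the reads could not place the ratio on one side of a typical promoter. The counts of members in this paragraph were not made over all promoters, so whether they are particular to the members is not known.

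**Figure D3:**
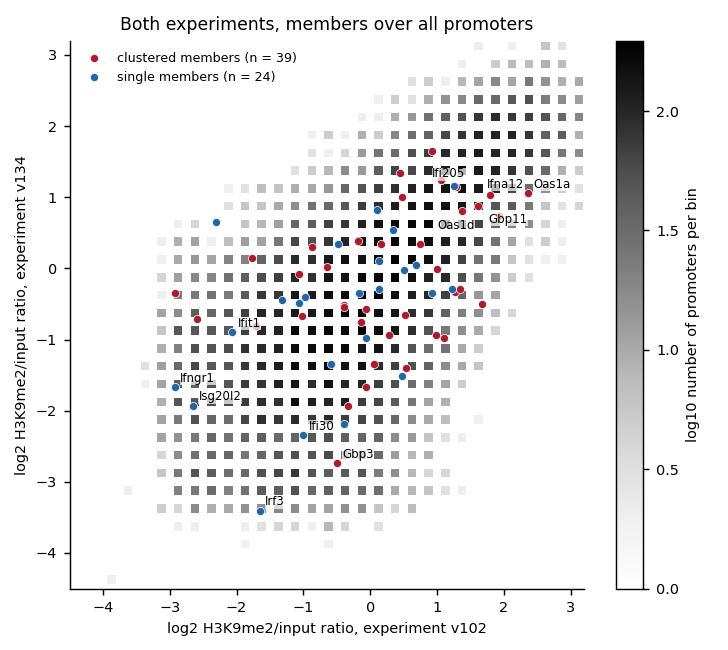
Log2 H3K9me2/input ratio in v134 (vertical axis) against that in v102 (horizontal axis), with all promoters as gray squares shaded by the log10 number per bin and the 39 clustered and 24 single members as points, and with names at the 11 members called by the test. Isg15, without a name at the upper left, has a high ratio in v134 only.

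The 22 members with an ISRE core match had a median at percentile 48.3 and the 27 without at 49.9. The order differed between the experiments, with 60.2 against 48.1 in v102 and 46.6 against 51.0 in v134. The top quartile held 5 of the 22 and 1 of the 27, and the pooled ratio was 1.16 in v102 and 0.876 in v134 with a match and 0.740 and 0.706 without. The test called 3 of the 22 (13.6%) above and 2 (9.09%) below input, and 0 of the 27 above and 4 (14.8%) below, each under the shares of all promoters, 18.6% above and 17.0% below. Oas1a, with 2 overlapping matches next to its start, was the highest member, whereas Ifit1, also with 2, lay below input. The 15 members with a GAS core match had a median at percentile 70.6 and the 34 without at 48.0, a gap found in v102 (67.9 against 47.9) and not in v134 (48.1 against 48.7). Promoters with an ISRE core match had a median GC content of 42.3% and those without 50.2%.

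**Figure D4:**
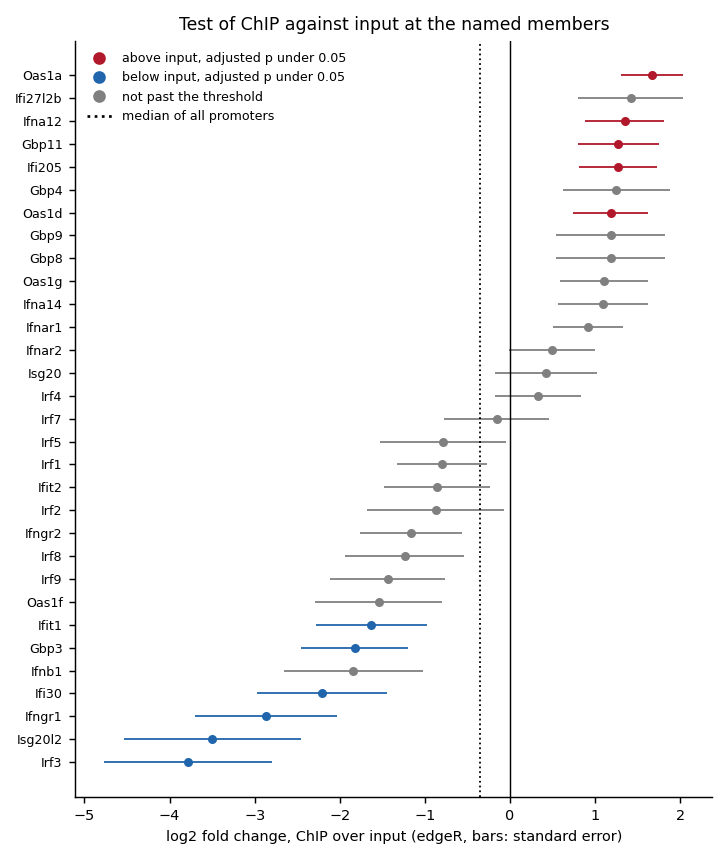
Log2 fold change of ChIP over input by edgeR with its standard error (horizontal axis) for receptor and Irf genes, the highest and lowest member of each family and the members with the lowest adjusted p, with red above input, blue below it, gray past neither and a dotted line at the median of all promoters. Oas1a has the highest value, 1.67, and Irf3 the lowest, -3.78, with the widest bars at promoters of 1 or 2 ChIP reads.

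Other genes of the pathway were taken from a list of kinases, STAT factors, sensors and induced genes outside the member rule, of which 47 promoters were in the table. Their median lay at percentile 42.4, with 2 (4.26%) above input, against 18.6% of all promoters, and 10 (21.3%) below, near the 17.0% of all promoters. Above were Pyhin1, a PYHIN gene like Ifi205, with 7 and 16 ChIP reads against 8 and 22 input reads (log2 fold change 1.87, adjusted p = 0.00174, edgeR), and Xaf1, an interferon-induced regulator of apoptosis, with 11 and 14 against 20 and 31 (log2 fold change 1.22, adjusted p = 0.0229, edgeR). Below were the kinases Jak2 and Tbk1, the sensor and adaptor genes Dhx58 and Tmem173, and, among others, Cmpk2, Herc6, Parp14, Irgm1 and Cxcl10. With the experiment as a block, Pyhin1 remained above (15.8% of all promoters), and Tmem173, Tbk1 and Irgm1 remained below (8.30% of all promoters). Stat2 lay at percentile 60.6 and was not called (adjusted p = 0.886, edgeR).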

How the data were processed

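H3K9me2 ChIP and input libraries of 2 experiments were analysed. Per the labels and the methods of the study, paired-end reads were trimmed (Trim Galore 0.4.2, Cutadapt 1.9.1), aligned to GRCm38 with Bowtie2 2.2.7 and quantified with SeqMonk within 1 kb of start sites. The authors deposited raw counts for each library, their sums over the experiments and the unscaled ratio of these sums, after removing promoters with low summed input. The annotation release and the handling of duplicate reads are not given in the sources used here. The members and lists were chosen with earlier results of these data known.

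GENCODE M21 on GRCm38 gave positions and base composition. In it 61 members matched by symbol and 2 by an older symbol (Ifi27l1 and Gbp1). Upstream sequences came from RefSeq. A matched symbol does not show that the authors counted around the same start. The counts were tested with edgeR 4.0.16 (quasi-likelihood test, TMM normalization, R 4.3.3), on all 26354 promoters and 4 libraries, with DESeq2 1.42.0 as an alternative. The edgeR test was tested on simulated data. Standard errors were derived from the fold change and its F statistic. The promoters named with values are all receptor and Irf genes, the highest and lowest mean log2 ratio in each family and the 12 lowest adjusted p above and 6 below input, of which a few results are not reported here. Cluster neighbours and further members of small families were named after their values were seen, to complete their group. The methods name 2 experiments with their own inputs, so ChIP and input of 1 experiment form a pair. The main edgeR test did not use the pair, which entered as a block in the alternative printed beside it. The differences between experiments in ChIP and in input had a correlation of 0.104 across promoters. Ranks, intervals, the lowess fit (fraction 0.3) and figures were made with statsmodels 0.14.6, scipy 1.17.1, pandas 2.3.3, numpy 2.4.6 and matplotlib 3.10.9 under Python 3.11.15. Alternatives were a replicate block, library totals, another pseudocount, minimum and cluster gap, summed reads, removal of the GC trend or of mitochondrial and sex chromosome promoters, and each experiment left out.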

Additional observations from a re-analysis of the deposited data

How the results depend on the processing

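With the experiment as replicate block, 2 members lay above input in place of 5 and 3 below in place of 6, and all 5 were among the 11 called without it. Ifi205, Gbp11, Oas1d, Ifi30, Gbp3 and Ifit1 lost their call under the block, and no other named member changed. DESeq2 called 1 above and 0 below (2 and 4 at an unadjusted p under 0.05), with 48 of the 63 adjusted p-values undefined by its filter. Of all 26354 promoters it called 3085 in either direction and left 17883 undefined. Scaling by library totals moved the median of all log2 fold changes by -0.14 and called 4 above and 9 below, and Ifnb1 (adjusted p = 0.0395, edgeR) and Irf9 (adjusted p = 0.0482, edgeR) then passed. Of all 26354 promoters, 9980 were called in either direction under this scaling. A minimum of 20 input reads in each experiment, which only 30 members have, moved the median of all log2 fold changes by 0.11. Of the 13993 promoters that met this minimum, 4124 were called in either direction. Then 2 lay above (Oas1d and Ifnar1, the latter at adjusted p = 0.0167, edgeR) and 4 below (Gbp3 and Ifit1 lost their call), Oas1a, Ifna12, Gbp11 and Ifi205 fell short of the minimum, 2 lay in the top quartile of both experiments in place of 10, the median of single members fell to percentile 36.7 from 43.9, and Irf7 turned from -0.16 to 0.19 on the log2 scale with neither value past the test (adjusted p = 0.829, edgeR). With a pseudocount of 5 reads, the median percentile was 55.4 for members and 49.3 for single members. Without the GC trend it was 40.2 for members and 36.4 for clustered members. Leaving out each experiment in turn gave medians from 51.0 to 56.2 for members and from 44.9 to 50.1 for single members, and from 52.5 to 65.5 for clustered members. The order of clustered above single members held under each alternative computed for both except removal of the GC trend. Counting overlapping windows once and leaving out the clustered ligands were chosen after seeing the data and moved no median by more than the spread between experiments. edgeR was not run without each experiment, which leaves 1 library to each arm and no residual degrees of freedom. Depth limits these results, since most members had few ChIP reads.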
